A study of Mus musculus with 8 samples.

Results

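In NMuMG cells, an epithelial line from the normal mouse mammary gland, BRM014 and vehicle were compared, and 79 genes stood out that were near-silent with vehicle and expressed after 30 h with BRM014. They were chosen by their measured levels among 21240 genes of the count table, in CPM (the gene's count divided by the library total and multiplied by 1000000). A gene qualified with a mean below 1 CPM in DMSO at both times, a mean of at least 1 CPM in BRM014 at 30 h, and a BRM014 mean at least 3 times the DMSO mean at 30 h. These limits were met by 87 genes, of which 8 were left out because they were Vgf, Csdc2, Tubb3, Celf4 or Syn1, or belonged to the claudins, keratins, integrins, laminins, matrix metalloproteinases, chemokines, interleukin 1 genes, solute carriers or Gbp genes. The DMSO 6 h, DMSO 30 h and BRM014 30 h levels chose the genes, so their difference at 30 h is described without a test. Only the BRM014 6 h libraries were not used, and the 6 h comparison is the one tested.

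All cells were wild type and grew in medium with serum and insulin. Each of the 4 groups (DMSO for 6 h, BRM014 for 6 h, DMSO for 30 h, BRM014 for 30 h) had 2 libraries. They are labelled as biological replicates, but the cultures behind them are not described, so p-values measure the spread between these libraries. How much BRM014 was applied is not stated, and the data describe 1 cell line.

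BRM014 inhibits the ATPases SMARCA4 (BRG1) and SMARCA2 (BRM), the motors of the SWI/SNF complexes. These complexes slide and evict nucleosomes and keep many enhancers and promoters accessible, and their loss or inhibition can lower some genes and raise others. Among the 79 genes were several of the interferon response, in which interferon receptors activate STAT and IRF factors that bind a DNA element built of GAAA repeats and switch on antiviral and antigen-processing genes. Others encode growth factors, ion channels and developmental transcription factors that are best known from neurons and other tissues. Of all 10058 genes below 1 CPM in DMSO at both times, 79 were in the set. Among those that did not meet the limits, only 4381 had at least 1 count, and genes without a count could not qualify. The list totals below were likewise not limited to genes with a count. On the lists used, the set held 6 of 42 such interferon response genes and 2 of 176 growth factors and hormones. It held 3 of 243 such ion channels and 3 of 211 such developmental transcription factors. These shares were not tested.

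Promoters of 4 interferon-related genes are shown because they hold the core of that element, searched as GAAA, any 2 bases and GAAA on both strands, in windows from 250 bases before to 50 bases after the gene start (RefSeq, GRCm38.p6). The windows are chr4:156200769-156201068 on the minus strand, chr11:58199306-58199605 on the plus strand, chr11:58214727-58215026 on the plus strand and chr5:120812465-120812764 on the minus strand, each written 5′ to 3′ along its gene, with the matches in capitals. In Oas1c the match lies on the opposite strand and reads as its reverse complement, and in Isg15 and Oas1c neighbouring matches overlap.
Isg15: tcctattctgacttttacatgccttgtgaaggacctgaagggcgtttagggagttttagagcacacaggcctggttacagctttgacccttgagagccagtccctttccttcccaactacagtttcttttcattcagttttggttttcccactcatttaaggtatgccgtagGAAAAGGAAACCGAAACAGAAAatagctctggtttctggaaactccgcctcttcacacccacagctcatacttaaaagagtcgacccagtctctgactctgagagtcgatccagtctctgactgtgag
Igtp: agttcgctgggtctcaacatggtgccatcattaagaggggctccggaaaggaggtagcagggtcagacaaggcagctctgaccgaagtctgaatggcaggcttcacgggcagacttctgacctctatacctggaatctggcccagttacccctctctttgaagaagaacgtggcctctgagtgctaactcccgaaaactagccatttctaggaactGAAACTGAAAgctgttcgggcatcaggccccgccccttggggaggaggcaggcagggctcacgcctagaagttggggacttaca
Irgm2: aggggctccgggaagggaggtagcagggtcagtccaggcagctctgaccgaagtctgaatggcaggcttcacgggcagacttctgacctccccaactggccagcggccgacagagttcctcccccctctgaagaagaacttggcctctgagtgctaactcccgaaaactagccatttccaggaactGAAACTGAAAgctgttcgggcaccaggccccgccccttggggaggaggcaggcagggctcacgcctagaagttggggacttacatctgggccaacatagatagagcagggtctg
Oas1c: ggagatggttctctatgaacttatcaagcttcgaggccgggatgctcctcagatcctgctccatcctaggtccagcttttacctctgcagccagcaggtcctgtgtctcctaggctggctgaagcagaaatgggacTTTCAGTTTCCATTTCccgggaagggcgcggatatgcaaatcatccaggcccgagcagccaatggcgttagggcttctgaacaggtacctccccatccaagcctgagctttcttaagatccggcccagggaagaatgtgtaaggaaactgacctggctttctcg
The Igtp and Irgm2 windows, from adjacent genes of 1 family, share an unbroken run of 61 bases downstream of the match.

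Libraries held 17859693 to 29955366 counts, so that 1 count was worth 0.0334 to 0.0560 CPM, and levels below 1 CPM rest on few counts. Of 8 epithelial markers, Krt8, Krt18, Krt19 and Cdh1 were abundant in all 8 libraries, while Epcam, Cldn3 and Cldn7 had 0 counts and Esrp1 had 1 count in all. The summed epithelial markers reached 5566 to 6161 CPM in the DMSO and BRM014 6 h libraries and 7778 to 8877 CPM in the BRM014 30 h libraries. Krt8, Krt18 and Cdh1 made up this rise at 30 h, while Krt19 was lower with BRM014 at both times. For Krt19, BRM014 libraries held 5453 and 9448 reads at 6 h, where vehicle libraries held 13148 and 14922. At 30 h the BRM014 libraries held 12189 and 20336, where vehicle libraries held 22115 and 27324. Among markers of other cell types, summed leukocyte markers stayed at or below 0.568 CPM, endothelial markers at or below 0.258 CPM and adipocyte markers at or below 0.300 CPM in every library. Summed neuronal markers, mostly Map2, were 7.85 and 8.23 CPM in BRM014 30 h, 6.70 and 8.07 CPM in DMSO 30 h and 6.89 and 12.7 CPM in DMSO 6 h. Among them Tubb3 had 2 and 1 counts in DMSO 30 h and 23 and 63 counts in BRM014 30 h. Summed glial markers, nearly all Mbp with Gfap, Sox10 and Olig2 at 0 to 3 counts, were 54.3 to 59.0 CPM with BRM014 and 30.7 to 46.3 CPM with DMSO. Summed muscle markers, with DMSO nearly all Tnnt2, were between 16.1 and 48.8 CPM with DMSO. They were at 8.10 and 8.83 CPM in BRM014 6 h and at 0.504 and 1.03 CPM in BRM014 30 h, where replicate 2 had 10 counts of Tnnt2 and 14 of Acta1. The part of these 3 marker lists in the results was not tested. In bulk RNA, a larger share of expressing cells and more RNA per cell cannot be told apart.

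The 79 genes together made up 21 and 25.8 CPM in DMSO 6 h, 27.4 and 28.4 CPM in DMSO 30 h, 52.6 and 66.0 CPM in BRM014 6 h and 173 and 180 CPM in BRM014 30 h. Both 6 h BRM014 libraries lay above all 4 DMSO libraries, and both 30 h BRM014 libraries above these. The rule kept the DMSO levels low and the BRM014 30 h levels high, so this order partly follows from the choice of the genes. Per gene, the mean at 30 h of BRM014 ran from 1.01 to 11.5 CPM with a median of 1.66 CPM, and 28 genes exceeded 2 CPM. The median over the genes was 0.302 CPM in DMSO 30 h, 0.269 CPM in DMSO 6 h and 0.576 CPM in BRM014 6 h. At 30 h both BRM014 libraries lay above both DMSO libraries for all 79 genes; the rule used this contrast, so nothing is read from it. The median ratio of BRM014 to DMSO at 30 h was 5.31 over the genes with a count in DMSO 30 h (all but Enho). The BRM014 30 h libraries differed from each other by a median of 1.44-fold per gene, at most 3.38-fold for Dlx2, and 57 genes reached 1 CPM in both.

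**Figure D1:**
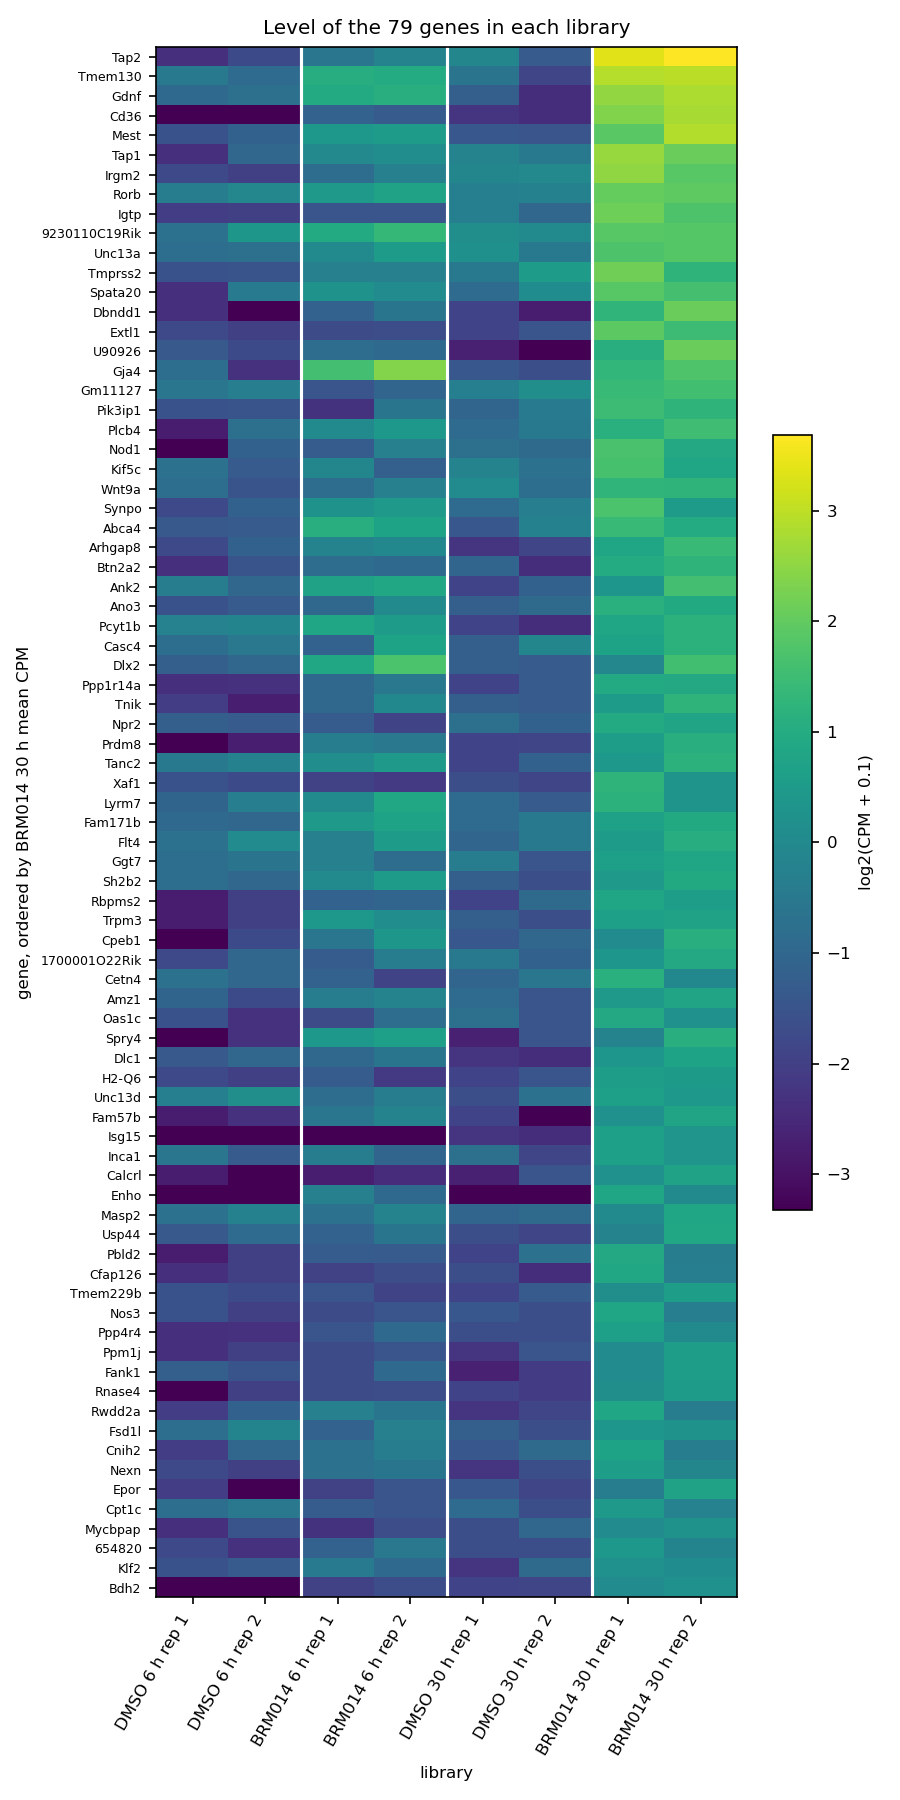
Level of each of the 79 genes (rows, ordered by mean CPM in BRM014 30 h) in each of the 8 libraries (columns), as log2(CPM + 0.1) on the colour scale. The 2 BRM014 30 h columns are the brightest by the choice of the genes, and the 2 BRM014 6 h columns lie between them and DMSO for part of the genes, summing to 52.6 and 66.0 CPM.

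At 6 h, 24 of the 79 genes rose with BRM014 and 0 fell (edgeR quasi-likelihood test, Benjamini-Hochberg adjusted p below 0.05 over 11835 genes). That is 30.4% of the genes, against 9.35% of all genes tested that rose, and against 3.17% of 567 other near-silent genes tested. The 79 were chosen as high in BRM014 30 h, and the 567 did not meet the 30 h limits. Differences at 6 h between these sets can therefore partly follow from the choice. Of the 79 genes, 33 were tested only because their BRM014 30 h counts passed the filter on low counts, and with the 6 h libraries alone 40 could be tested, of which 20 rose. The share that fell was 14.4% of all genes tested and 6.17% of the other near-silent genes. The other 55 genes did not pass. At an unadjusted p below 0.05, 37 were higher and 0 lower, DESeq2 called 20 higher and 0 lower, and limma-voom called 22 higher and 0 lower. Shares of all genes called were taken only for the adjusted edgeR test over 11835 genes. The counts at the unadjusted threshold, with other tools and with the 6 h libraries alone have no such background beside them. The median log2 fold change at 6 h was 1.25 for the 79 genes, -0.01 for all genes tested and -0.12 for the other near-silent genes. It was also 1.25 when the genes without a count in DMSO 6 h were set to their lower bounds. Both BRM014 libraries lay above both DMSO libraries at 6 h for 54 genes (68.4%), against 41.2% of all genes tested, 33.2% of all genes with a count and 25.9% of the other near-silent genes. The number of genes called depended on single 6 h libraries: it was 9 without DMSO replicate 1, 15 without DMSO replicate 2, 15 without BRM014 replicate 1 and 9 without BRM014 replicate 2. The DMSO 6 h libraries also entered the choice of the genes as a ceiling, and without that ceiling 28 of 92 genes rose and 2 fell.

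**Figure D2:**
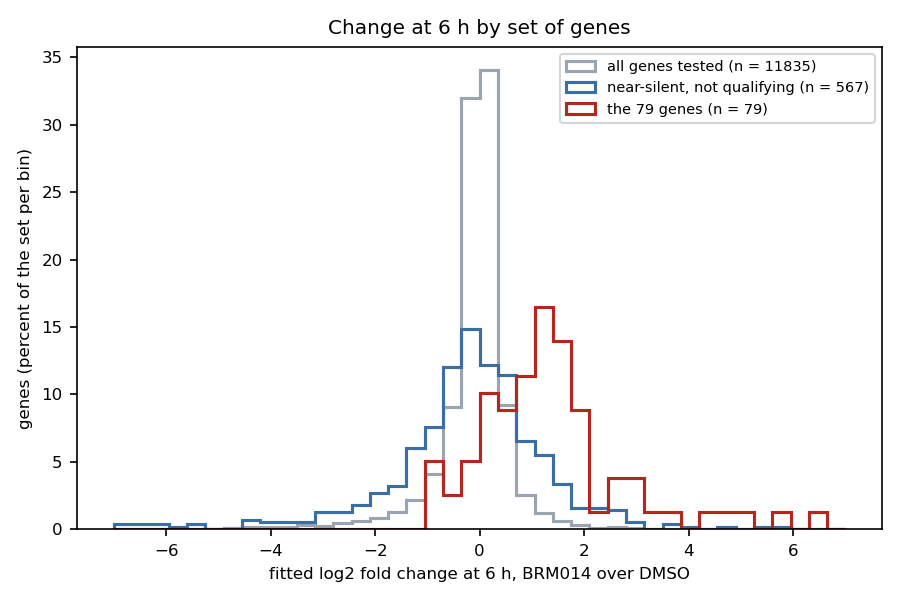
Fitted log2 fold change of BRM014 over DMSO at 6 h (horizontal axis) as a share of each set of genes per bin (vertical axis, percent), for all 11835 genes tested, the 567 other near-silent genes tested and the 79 genes. The 567 genes did not meet the 30 h limits of the choice. The 79 genes have a median of 1.25, to the right of the medians of -0.01 and -0.12 of the other sets; among the 79, the values past 4 belong to genes with at most 2 counts in DMSO 6 h.

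Of the 24 genes, 8 stayed called when any of the 8 libraries was left out: Gdnf, Cd36, Gja4, Abca4, Prdm8, Trpm3, Spry4 and Enho. They include a growth factor, a gap junction protein, a cation channel, a lipid receptor and a transcription factor. Gdnf, Gja4 and Abca4 were also called in all 9 other settings tried. Cd36 and Enho did not pass the filter on low counts with the 6 h libraries alone, so they were not tested there.

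Gdnf encodes glial cell line-derived neurotrophic factor, a ligand of the RET receptor that supports neurons and kidney development. Its levels were 0.428 and 0.501 CPM in DMSO 6 h, 1.86 and 2.06 CPM in BRM014 6 h, 0.332 and 0.0877 CPM in DMSO 30 h and 5.71 and 7.04 CPM in BRM014 30 h. The BRM014 libraries lay above the DMSO libraries at both times without overlap, and the 6 h log2 fold change was 1.99 ± 0.41 (SE; edgeR adjusted p = 0.0031). The other growth factor of the set, Wnt9a, a Wnt ligand, did not pass at 6 h: it was at 0.475 and 0.250 CPM in DMSO and 0.465 and 0.729 CPM in BRM014, and the groups overlapped. At 30 h Wnt9a reached 2.30 and 2.27 CPM in BRM014 against 0.941 and 0.483 CPM in DMSO.

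Gja4 encodes connexin 37, a gap junction channel protein known from endothelium. It was at 0.475 and 0.10 CPM in DMSO 6 h, 2.94 and 5.14 CPM in BRM014 6 h, 0.277 and 0.219 CPM in DMSO 30 h and 2.41 and 3.27 CPM in BRM014 30 h. Both 6 h BRM014 libraries lay far above DMSO, with a log2 fold change of 3.69 ± 0.51 (edgeR adjusted p = 0.000159), and the 6 h mean was 142% of the 30 h mean. The size of the change depended on the DMSO libraries: it was 5.24 without DMSO 6 h replicate 1 and 2.97 without replicate 2. Trpm3, a cation channel of the TRP family, was at 0.0475 and 0.150 CPM in DMSO 6 h, 1.24 and 0.986 CPM in BRM014 6 h, 0.332 and 0.219 CPM in DMSO 30 h and 1.46 and 1.54 CPM in BRM014 30 h. Its groups did not overlap at either time, and its 6 h log2 fold change was 3.35 ± 0.62 (edgeR adjusted p = 0.00151). The change of Trpm3 was 2.81 without DMSO 6 h replicate 1 and 4.29 without replicate 2. Ano3, of the TMEM16 channel and scramblase family, had 0.238 and 0.300 CPM in DMSO 6 h and 0.413 and 0.900 CPM in BRM014 6 h, and did not pass (edgeR adjusted p = 0.144).

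Cd36, a receptor that takes up fatty acids and modified lipoproteins, had 0 counts in both DMSO 6 h libraries and 0.362 and 0.300 CPM in BRM014 6 h. At 30 h it was at 0.111 and 0.0877 CPM in DMSO and at 5.04 and 6.74 CPM in BRM014. Against a floor of 3 counts over the DMSO group, it was at least 4.48-fold higher at 6 h (edgeR adjusted p = 0.008), when it stood at 5.62% of its 30 h level. Enho, which encodes the secreted peptide adropin, had 0 counts in all 4 DMSO libraries, 0.723 and 0.429 CPM in BRM014 6 h and 1.68 and 0.901 CPM in BRM014 30 h. That is at least 7.68-fold higher at 6 h (edgeR adjusted p = 0.00762) and at least 16.2-fold higher at 30 h. Bdh2, a short-chain dehydrogenase, was the third gene with 0 counts in DMSO 6 h; it was at least 2.56-fold higher (edgeR adjusted p = 0.0412), from 0.155 and 0.214 CPM in BRM014 6 h, and lost its call in 7 of the 8 fits without 1 library, with DESeq2 and with no filter on low counts. Cd36, Enho and Bdh2 were not tested with the 6 h libraries alone, where their counts were too low for the filter. Abca4, a lipid transporter known from photoreceptors, rose from 0.285 and 0.300 CPM in DMSO 6 h to 2.01 and 1.59 CPM in BRM014 6 h. Its log2 fold change was 2.51 ± 0.50 (edgeR adjusted p = 0.00243), and its 30 h levels were 0.277 and 0.746 CPM in DMSO and 2.52 and 1.87 CPM in BRM014.

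Spry4, an inhibitor of receptor tyrosine kinase signalling to ERK, had 2 counts in DMSO 6 h (0 and 0.10 CPM) and 58 counts in BRM014 6 h (1.24 and 1.46 CPM). The ratio was 27.9 with an exact 95% interval of 7.37 to 235, which reflects counting error alone (edgeR adjusted p = 0.00258). Both DMSO counts came from replicate 2, and without replicate 1 the fitted log2 fold change was 3.65. At 30 h it was at 0.0554 and 0.263 CPM in DMSO and 0.784 and 2.04 CPM in BRM014, so the 6 h level was 95.6% of the 30 h level and the BRM014 30 h libraries lay far apart.

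The set held 3 developmental transcription factors. Prdm8, a PR domain repressor of the nervous system, had 1 count in DMSO 6 h (0 and 0.0501 CPM) and 27 counts in BRM014 6 h (0.672 and 0.60 CPM), a ratio of 25.9 with an exact 95% interval of 4.27 to 1062 (edgeR adjusted p = 0.0039). The DMSO count came from replicate 2, and without replicate 1 the fitted log2 fold change was 3.49. It stood at 0.166 and 0.175 CPM in DMSO 30 h and 1.40 and 2.04 CPM in BRM014 30 h. Dlx2, a homeobox factor of forebrain and craniofacial development, was at 0.333 and 0.401 CPM in DMSO 6 h, 1.70 and 3.17 CPM in BRM014 6 h, 0.332 and 0.307 CPM in DMSO 30 h and 0.840 and 2.84 CPM in BRM014 30 h. Its 6 h log2 fold change was 2.65 ± 0.60 (edgeR adjusted p = 0.00572), and the call was lost without DMSO 6 h replicate 1 or BRM014 6 h replicate 2. Klf2, a zinc finger factor known from endothelium and T cells, did not pass (0.238 and 0.300 CPM in DMSO 6 h, 0.620 and 0.429 CPM in BRM014 6 h, edgeR adjusted p = 0.379). Of the other 104 developmental transcription factors tested, 10 rose and 25 fell at 6 h, and 11 rose and 30 fell at 30 h, against backgrounds of 9.35% and 14.4% at 6 h and 16.8% and 19.1% at 30 h.

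**Figure D3:**
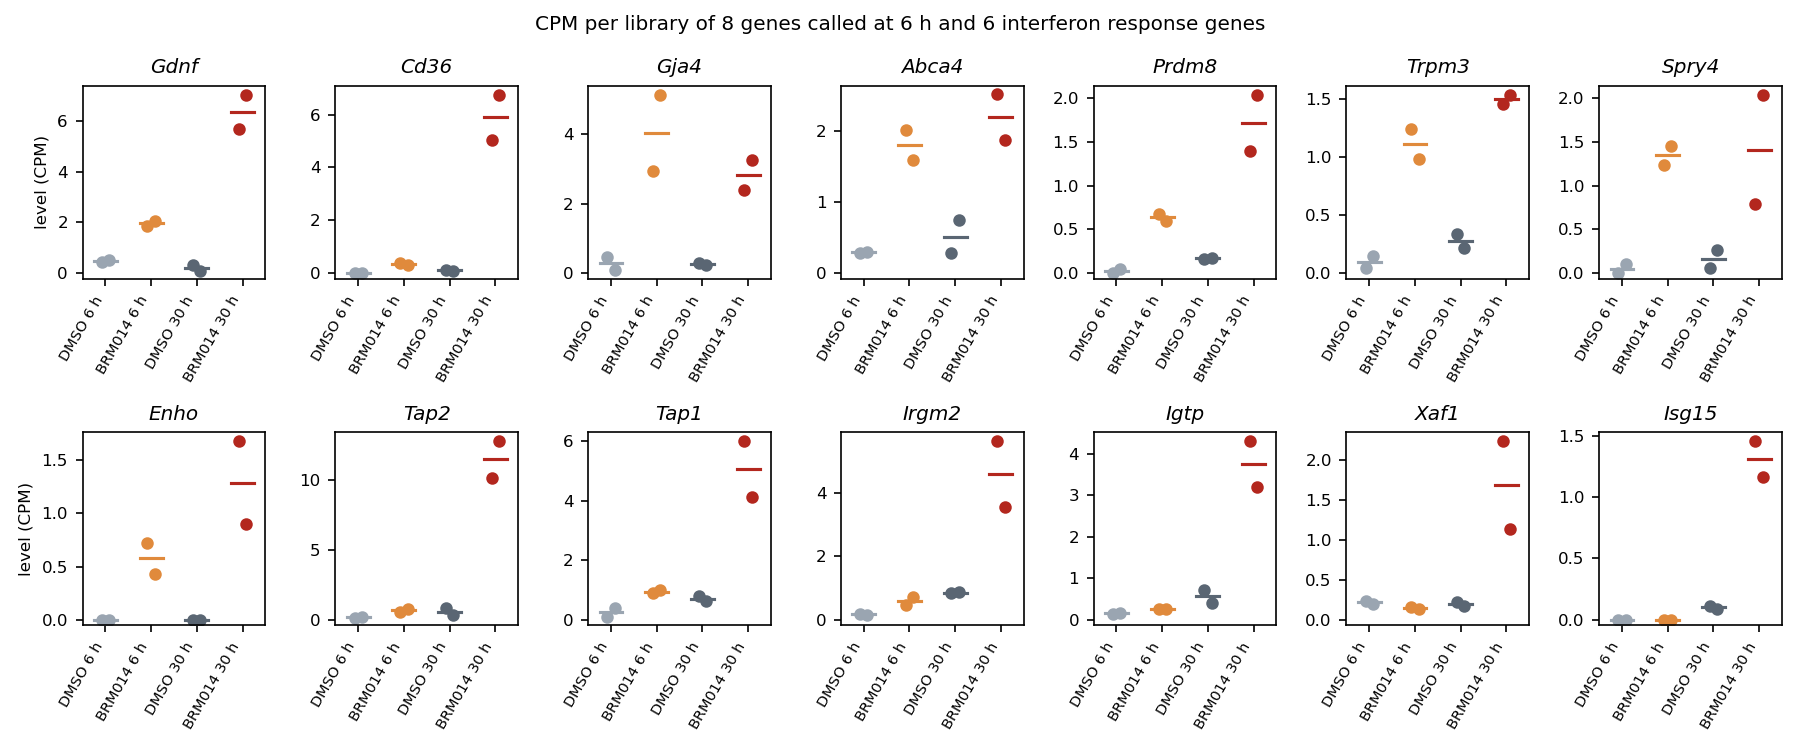
CPM in each library (points) and group mean (lines) for the 8 genes called at 6 h in every fit without 1 library and the 6 interferon response genes, each panel with its own linear axis. Gja4 is highest at 6 h, while Tap2, Igtp, Xaf1 and Isg15 at 6 h lie at 0% to 8.40% of their 30 h levels.

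Of the set, 6 genes belong to the interferon response list. Tap1 and Tap2 encode the transporter that moves peptides into the endoplasmic reticulum for loading on MHC class I, and Irgm2 and Igtp encode immunity-related GTPases that act against intracellular pathogens. Isg15 is a ubiquitin-like protein, and Xaf1 is an interferon-induced factor that promotes apoptosis. Their median level at 6 h of BRM014 was 7.63% of that at 30 h, against 33.9% for the other 73 genes, a description without a test. The DMSO means of Tap1, Tap2, Irgm2, Igtp and Isg15 were also higher at 30 h than at 6 h, and that of Xaf1 was lower. In these shares, culture time and time with BRM014 cannot be told apart.

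Tap2 was at 0.0951 and 0.200 CPM in DMSO 6 h, 0.568 and 0.771 CPM in BRM014 6 h, 0.830 and 0.307 CPM in DMSO 30 h and 10.2 and 12.8 CPM in BRM014 30 h. The BRM014 libraries lay above the DMSO libraries at both times, and the 6 h log2 fold change was 2.08 ± 0.65 (edgeR adjusted p = 0.032). Tap1 was at 0.0951 and 0.401 CPM in DMSO 6 h, 0.878 and 0.986 CPM in BRM014 6 h, 0.775 and 0.614 CPM in DMSO 30 h and 5.99 and 4.11 CPM in BRM014 30 h, with a 6 h log2 fold change of 1.83 ± 0.56 (edgeR adjusted p = 0.0303). Tap2 lost its 6 h call with limma-voom and in the fits without any 1 of the 4 libraries at 6 h, and Tap1 in those without DMSO replicate 1, BRM014 replicate 1 or BRM014 replicate 2 and with counts thinned to the smallest library. Without DMSO replicate 1 the change of Tap1 was 1.18, and without DMSO replicate 2 it was 3.12.

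Irgm2 was at 0.190 and 0.150 CPM in DMSO 6 h, 0.465 and 0.729 CPM in BRM014 6 h, 0.830 and 0.877 CPM in DMSO 30 h and 5.66 and 3.57 CPM in BRM014 30 h. Its 6 h libraries did not overlap, but the log2 fold change of 1.71 ± 0.61 did not pass (edgeR adjusted p = 0.0585). Igtp was at 0.143 and 0.150 CPM in DMSO 6 h, 0.258 and 0.257 CPM in BRM014 6 h, 0.720 and 0.395 CPM in DMSO 30 h and 4.31 and 3.2 CPM in BRM014 30 h (6 h edgeR adjusted p = 0.53). Reads of these adjacent genes cannot be told apart with certainty, since their exons overlap by 162 bases on the same strand.

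Xaf1 was at 0.238 and 0.200 CPM in DMSO 6 h, 0.155 and 0.129 CPM in BRM014 6 h, 0.221 and 0.175 CPM in DMSO 30 h and 2.24 and 1.14 CPM in BRM014 30 h, with its 6 h values lower in both BRM014 libraries (edgeR adjusted p = 0.594). Isg15 had 0 counts in all 4 libraries at 6 h, 0.111 and 0.0877 CPM in DMSO 30 h and 1.46 and 1.17 CPM in BRM014 30 h. For Isg15 no fold can be given at 6 h, and its fitted value of 0 is counted among the 55 genes that did not pass.

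The other 37 interferon response genes tested did not all move this way. On every list, the other genes include any listed gene among the 8 left out by name. The 30 h rise of such a gene follows from the rule. At 6 h, 2 rose and 4 fell, and at 30 h, 18 rose and 4 fell, with median log2 fold changes of 0.12 and 0.54. Of all genes tested, 9.35% rose and 14.4% fell at 6 h, and 16.8% rose and 19.1% fell at 30 h. At 30 h Irf1, a transcription factor of the pathway, rose from a mean of 48.9 to 171 CPM (log2 fold change 1.77 ± 0.15, edgeR adjusted p = 1.11e-06). Tapbp, the tapasin that holds TAP to MHC class I, rose by 0.93 ± 0.15 on the log2 scale (edgeR adjusted p = 0.000319) from 115 to 225 CPM, and Psmb9, an immunoproteasome subunit beside Tap1, rose by 2.30 ± 0.72 (edgeR adjusted p = 0.0238) from 0.121 to 0.630 CPM. B2m, the light chain of MHC class I, did not pass at 30 h (280 and 241 CPM in DMSO and BRM014, edgeR adjusted p = 0.0967). Irgm1, of the same GTPase family as Irgm2 and Igtp, fell from 77.5 to 37.8 CPM (log2 fold change -1.08 ± 0.13, edgeR adjusted p = 2.29e-05). The antiviral GTPase Mx1 fell from 2.94 to 0.0447 CPM (log2 fold change -5.97 ± 0.57, edgeR adjusted p = 3.59e-06). These genes outside the 79 were chosen after their values were seen. Among 21 interferon genes themselves, 18 had 0 counts in all libraries, Ifnb1 included; the others were Ifnz with 7 counts in BRM014 30 h replicate 2, Ifne with 1 count in each of 3 DMSO libraries and Ifng with 1 count in each of 2 libraries.

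Further immune genes were in the set and are named after their values were seen. Oas1c, of the oligoadenylate synthetase family, was at 0.498 and 0.263 CPM in DMSO 30 h and 1.79 and 1.07 CPM in BRM014 30 h. H2-Q6, an MHC class I gene, was at 0.166 and 0.263 CPM in DMSO 30 h and 1.40 and 1.30 CPM in BRM014 30 h. Nod1, a sensor of bacterial peptidoglycan, was at 0.498 and 0.439 CPM in DMSO 30 h and 3.08 and 1.77 CPM in BRM014 30 h, and the butyrophilin Btn2a2 at 0.387 and 0.0877 CPM and 1.90 and 2.24 CPM. None of these 4 genes passed at 6 h, where edgeR adjusted p-values ran from 0.233 for Btn2a2 to 0.869 for H2-Q6. Oas1c and H2-Q6 belong to families of near-identical genes, so their counts are uncertain.

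The neuronal and synaptic list contributed Unc13a, Kif5c and Ank2. Unc13a, which primes synaptic vesicles for release, was at 0.475 and 0.501 CPM in DMSO 6 h, 0.930 and 1.33 CPM in BRM014 6 h, 1.05 and 0.614 CPM in DMSO 30 h and 3.19 and 3.51 CPM in BRM014 30 h. Its 6 h libraries did not overlap, and the log2 fold change of 1.13 ± 0.43 did not pass (edgeR adjusted p = 0.0768). Ank2, an ankyrin that anchors membrane proteins, rose from 0.666 and 0.401 CPM to 1.55 and 1.76 CPM at 6 h (log2 fold change 1.54 ± 0.52, edgeR adjusted p = 0.0475), a call lost without any 1 of the 4 libraries at 6 h and with DESeq2 or limma-voom. Kif5c, a kinesin heavy chain, had overlapping 6 h values of 0.523 and 0.300 CPM in DMSO and 0.826 and 0.343 CPM in BRM014 (edgeR adjusted p = 0.722). Of the other 41 genes of the list tested, 3 rose and 6 fell at 6 h, where 9.35% and 14.4% of all genes tested did. At 30 h, 9 rose and 13 fell, where 16.8% and 19.1% of all genes tested did. Genes left out by name that met the limits were not removed from these counts.

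Of the other 64 ion channel genes tested, 11 rose and 12 fell at 6 h, and 18 rose and 8 fell at 30 h. Of the other 99 growth factor and hormone genes tested, 9 rose and 45 fell at 6 h, and 18 rose and 40 fell at 30 h. The shares of all genes tested were again 9.35% and 14.4% at 6 h and 16.8% and 19.1% at 30 h. Among G protein-coupled receptors, 1 gene of the set, Calcrl, was found: the receptor for CGRP and adrenomedullin had 0.0475 and 0 CPM in DMSO 6 h, 0.0517 and 0.0857 CPM in BRM014 6 h, 0.0554 and 0.263 CPM in DMSO 30 h and 1.06 and 1.54 CPM in BRM014 30 h. Its 6 h level was 5.28% of the 30 h level. No gene of the set was on the lists for muscle and contractile genes, germ cell genes, cadherins, xenobiotic and steroid enzymes, SWI/SNF subunits or Polycomb group genes.

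The other genes with high levels at 30 h were of mixed function. Tmem130, a membrane protein, was at 0.618 and 0.451 CPM in DMSO 6 h, 1.96 and 1.89 CPM in BRM014 6 h, 0.554 and 0.175 CPM in DMSO 30 h and 7.33 and 7.71 CPM in BRM014 30 h (6 h log2 fold change 1.75 ± 0.40, edgeR adjusted p = 0.0062); the call was lost without DMSO 6 h replicate 2. Mest, an imprinted gene expressed from the paternal allele, was at 0.238 and 0.351 CPM in DMSO 6 h, 1.24 and 1.37 CPM in BRM014 6 h, 0.277 and 0.263 CPM in DMSO 30 h and 3.58 and 7.28 CPM in BRM014 30 h (log2 fold change 2.06 ± 0.54, edgeR adjusted p = 0.0138). Its call was lost without DMSO 6 h replicate 1 or 2 or BRM014 6 h replicate 2. Neither gene's groups overlapped at either time.

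Cpeb1, an RNA-binding protein that controls polyadenylation and translation, rose from 0 and 0.200 CPM in DMSO 6 h to 0.568 and 1.20 CPM in BRM014 6 h (log2 fold change 3.05 ± 0.87, edgeR adjusted p = 0.0218), and lost the call without DMSO 6 h replicate 1 (2.11) or BRM014 6 h replicate 2 (2.39). Its DMSO 6 h counts were all in replicate 2. Rorb, a nuclear receptor of retina and cortex, did not pass at 6 h (0.666 and 0.851 CPM against 1.29 and 1.54 CPM with BRM014, edgeR adjusted p = 0.11), and was at 3.98 and 3.74 CPM in BRM014 30 h. The membrane serine protease Tmprss2 was at 0.238 and 0.250 CPM in DMSO 6 h and 0.723 and 0.729 CPM in BRM014 6 h (edgeR adjusted p = 0.123), and reached 4.37 and 2.27 CPM in BRM014 30 h against 0.609 and 1.36 CPM in DMSO 30 h. Spata20 was at 0.0951 and 0.651 CPM in DMSO 6 h and 1.08 and 0.943 CPM in BRM014 6 h (edgeR adjusted p = 0.126). For Rorb, Tmprss2 and Spata20, both 6 h BRM014 libraries lay above both DMSO libraries without passing the test. 

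The remaining 8 genes that rose at 6 h were 9230110C19Rik, Dbndd1, Plcb4, Synpo, Ppp1r14a, Tnik, Fam171b and Fam57b, named because they passed the test. Plcb4, a phospholipase C that acts downstream of G proteins, was at 0.0475 and 0.501 CPM in DMSO 6 h and 0.930 and 1.24 CPM in BRM014 6 h (log2 fold change 1.92 ± 0.62, edgeR adjusted p = 0.04). Synpo, an actin-associated protein of podocytes and dendritic spines, went from 0.190 and 0.351 CPM to 1.08 and 1.29 CPM (2.04 ± 0.60, edgeR adjusted p = 0.0244). Ppp1r14a, an inhibitor of myosin phosphatase, went from 0.0951 and 0.10 CPM to 0.413 and 0.60 CPM (2.25 ± 0.70, edgeR adjusted p = 0.032). The kinase Tnik went from 0.143 and 0.0501 CPM to 0.413 and 0.857 CPM (2.58 ± 0.77, edgeR adjusted p = 0.0259). In each of these 4 genes the 6 h groups did not overlap. Fam171b was at 0.428 and 0.401 CPM in DMSO 6 h and 1.29 and 1.59 CPM in BRM014 6 h (1.70 ± 0.42, edgeR adjusted p = 0.0103), and the 9230110C19Rik at 0.523 and 1.20 CPM and 1.86 and 2.44 CPM (1.25 ± 0.38, edgeR adjusted p = 0.0284). Dbndd1 had 2 counts in DMSO 6 h and 20 in BRM014 6 h, a ratio of 9.60 with an exact 95% interval of 2.33 to 84.8 (edgeR adjusted p = 0.0422). Fam57b, of a family of ceramide synthesis genes, had 3 and 29 counts, a ratio of 9.28 with an interval of 2.88 to 47.6 (edgeR adjusted p = 0.0196). All 8 calls were lost without DMSO 6 h replicate 1 and also without BRM014 6 h replicate 2. Without DMSO 6 h replicate 2, 6 of them were lost (all but 9230110C19Rik and Plcb4), and without BRM014 6 h replicate 1, 5 were (9230110C19Rik, Dbndd1, Plcb4, Synpo and Ppp1r14a). Plcb4 was also lost without either BRM014 30 h library, and 9230110C19Rik and Ppp1r14a were not called by DESeq2. Dbndd1, Ppp1r14a and Tnik were not called with counts thinned to the smallest library, and were not tested with the 6 h libraries alone. Without DMSO 6 h replicate 1 the log2 fold change of Plcb4 was 1.09, and without replicate 2 it was 4.27. For Tnik, leaving out DMSO 6 h replicate 1 gave 3.52 and leaving out BRM014 6 h replicate 2 gave 1.94, for 9230110C19Rik it was 1.93 without DMSO 6 h replicate 2, and for Dbndd1, whose DMSO counts were all in replicate 1, it was 2.12 without replicate 2.

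Other members are described by their 30 h levels and are named after these were seen. U90926 had 1 count in DMSO 30 h (0.0554 and 0 CPM) and 159 counts in BRM014 30 h (2.02 and 4.11 CPM), while its 6 h values of 0.285 and 0.200 CPM in DMSO and 0.465 and 0.429 CPM in BRM014 did not pass (edgeR adjusted p = 0.474). Extl1, an exostosin-like gene of heparan sulfate synthesis, was at 0.190 and 0.150 CPM in DMSO 6 h, 0.207 and 0.214 CPM in BRM014 6 h, 0.166 and 0.263 CPM in DMSO 30 h and 3.70 and 2.70 CPM in BRM014 30 h. Both genes reached their levels after 6 h, at which they stood at 14.6% and 6.58% of the 30 h level.

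Flt4, the receptor VEGFR3, was at 0.387 and 0.614 CPM in DMSO 30 h and 1.34 and 1.97 CPM in BRM014 30 h, and Nos3, the endothelial nitric oxide synthase, at 0.277 and 0.219 CPM and 1.68 and 0.701 CPM. Npr2, a natriuretic peptide receptor, was at 0.498 and 0.351 CPM in DMSO 30 h and 1.85 and 1.60 CPM in BRM014 30 h. Epor, the erythropoietin receptor, was at 0.277 and 0.175 CPM and 0.672 and 1.54 CPM. None of these 4 passed at 6 h (edgeR adjusted p from 0.427 for Epor to 0.909 for Nos3), and the summed markers of endothelium did not exceed 0.168 CPM in the BRM014 30 h libraries.

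Levels per kilobase of exon (GENCODE M21 models, 78 genes matched) allow the genes to be compared with each other. In BRM014 30 h, Tap2 was highest with 3.04 CPM per kilobase, followed by Tmem130 with 2.59, 9230110C19Rik with 2.21, Gm11127 with 1.99, Igtp with 1.86, Gdnf and Isg15 with 1.74 each, Gja4 with 1.69 and Cd36 with 1.64. The long genes Trpm3 and Ank2 were at 0.0612 and 0.0588 CPM per kilobase. Exons of 24 genes overlapped exons on the opposite strand, including Tap2 (698 bases), Tap1 (212 bases, with Psmb9), Prdm8 (1411 bases), Trpm3 (628 bases), Mest (912 bases, with Copg2) and Unc13a (495 bases). The longest such overlap was in Masp2 (1817 bases, with Tardbp), and that of Nos3 was 1334 bases. The libraries were stranded, but whether the counting used the strand is not stated, so values of these genes are uncertain in their origin.

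The genes differed in how much of the 30 h level was present at 6 h, a share that spans culture time as well as time with BRM014. The median was 31.2%, with 32 genes under 25% and 21 genes over 50%, and the range went from 0% for Isg15 to 142% for Gja4. Gja4 and Dlx2 (133%) were the only ones whose 6 h mean was at or over the 30 h mean. The median was 44.6% for the 24 genes called at 6 h and 27.0% for the other 55. Of all 79, 21 had a 6 h mean of at least 1 CPM with BRM014.

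**Figure D4:**
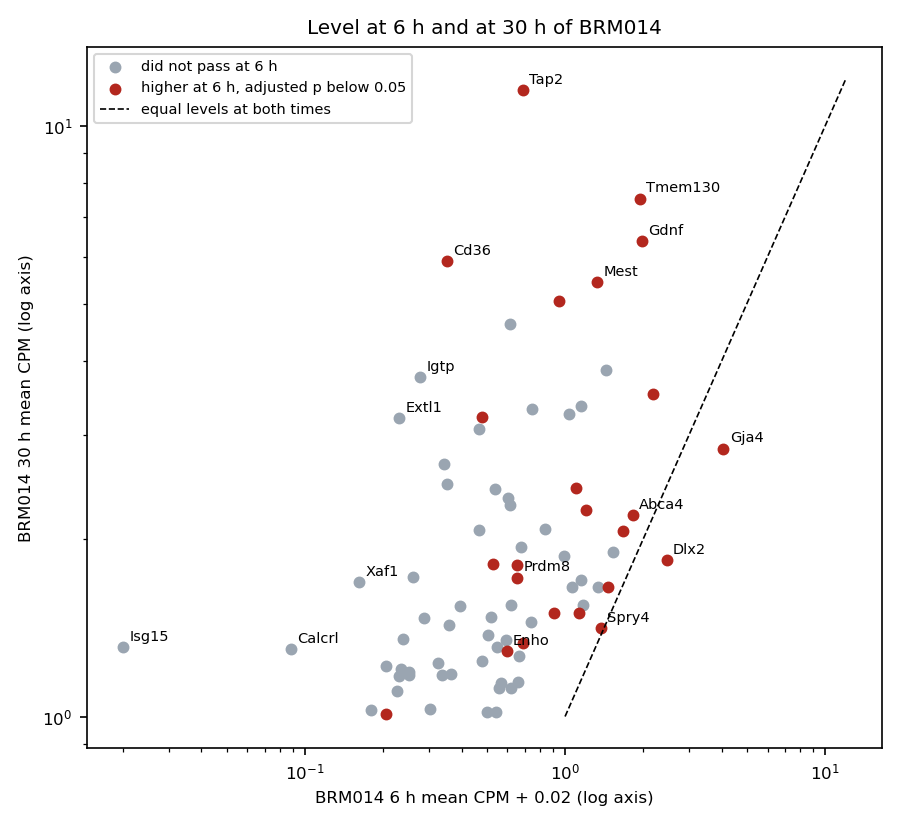
Mean CPM of each of the 79 genes in BRM014 6 h (horizontal, plus 0.02, log axis) against BRM014 30 h (vertical, log axis), with the 24 genes called at 6 h in red and the dashed line marking equal levels. Gja4 and Dlx2 lie to the right of the line, and Isg15, Calcrl, Cd36, Tap2, Extl1, Igtp and Xaf1 lie far to its left.

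The DMSO levels also moved between the times: 26 genes had a higher DMSO mean at 6 h than at 30 h, and the others except Enho a lower one. DMSO means at 6 h and 30 h were 0.148 and 0.569 CPM for Tap2, 0.248 and 0.695 CPM for Tap1, and 0.170 and 0.854 CPM for Irgm2. For 72 genes the BRM014 30 h mean was at least 3 times the DMSO 6 h mean as well. The 7 exceptions were Pcyt1b, Tanc2, Flt4, Unc13d, Masp2, Fsd1l and Cpt1c. Pcyt1b, an enzyme of phosphatidylcholine synthesis, was at 0.761 and 0.801 CPM in DMSO 6 h and 0.166 and 0.0877 CPM in DMSO 30 h, with 1.62 and 2.17 CPM in BRM014 30 h. Just inside the limit of 1 CPM lay Bdh2 with 1.01 and Klf2 with 1.02 CPM, and just outside it Aldh1l2 with 0.927 and Hbq1b with 0.915 CPM. Just inside the 3-fold limit lay Masp2 with a ratio of 3.06 and Cetn4 with 3.07, and just outside it Ccdc62 with 2.96 and Brdt with 2.91.

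In RefSeq order among tested genes, 6 of the 79 lay next to another: Igtp with Irgm2, Tap1 with Tap2, and Fam171b with Calcrl. Chromosome 11 held 12 of them (15.2%, against 8.33% of all genes tested). Of 150 tested neighbours outside the set, 25 rose and 17 fell at 6 h, and 40 rose and 24 fell at 30 h. The shares that rose were 16.7% at 6 h and 26.7% at 30 h, against 9.35% and 16.8% of all genes tested. Of all genes tested, 14.4% fell at 6 h and 19.1% at 30 h. The neighbours' median log2 fold changes were 0.02 at 6 h and 0.11 at 30 h. Examples chosen after the values were seen are Btn1a1 beside Btn2a2, with log2 fold changes of 1.38 at 6 h and 4.04 at 30 h, Dlx1 beside Dlx2 with 1.08 and 2.32, and Cacna1g beside Spata20 with 1.34 and 2.32. Btn1a1 and Dlx1 met the 30 h limits and were outside the set only through the DMSO 6 h ceiling. On the other side, Agrn and Plekhn1, which flank Isg15, fell by 0.71 and 1.72 on the log2 scale at 30 h.

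Promoter windows of 300 bases were found for 66 of the 79 genes and for 16524 genes in all. Those without a window were Tap2, Dbndd1, Synpo, Arhgap8, Tnik, Fam171b, Spry4, Dlc1, Unc13d, Enho, Usp44, Nos3 and Nexn. With the mean taken over the windows of a gene with several, the 66 genes had a median ratio of observed to expected CpG of 0.514. It was 0.475 for 388 other near-silent genes tested, 0.259 for 7104 near-silent genes with too few counts for the test and 0.774 for 8960 genes with at least 1 CPM in DMSO. A ratio over 0.6 was found for 39.4% of the 66 genes, 39.7% of the other near-silent genes tested, 18.5% of the untested ones and 75.3% of the expressed genes. The 66 genes therefore lay near the other near-silent tested genes in CpG content. The 5 interferon response genes with a window had a median ratio of 0.377.

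**Figure D5:**
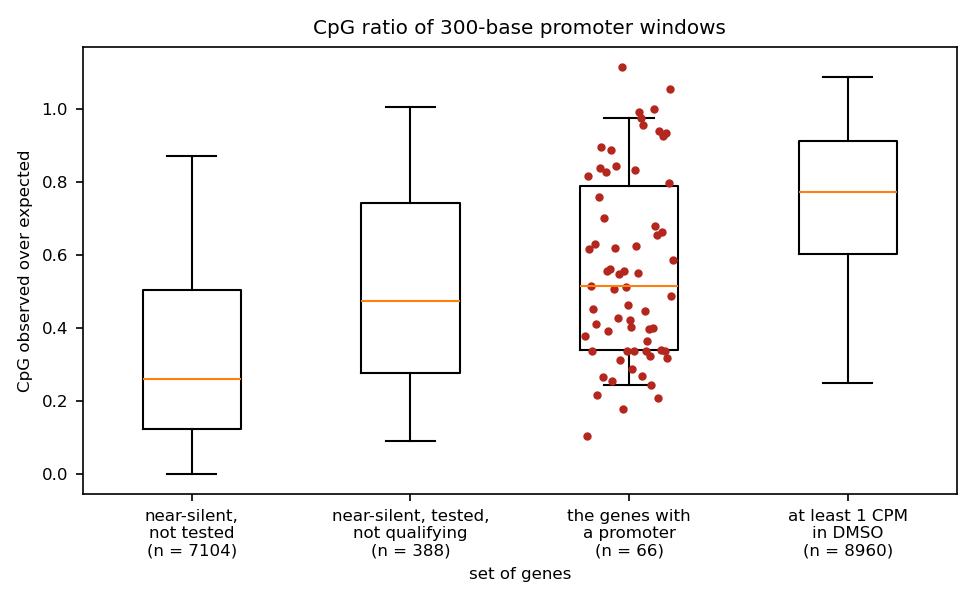
Observed over expected CpG ratio (vertical axis) of promoter windows, averaged per gene, for 4 sets of genes. Boxes run from the lower to the upper quartile with the median in orange, and whiskers from the 5th to the 95th percentile. Points are the 66 genes of the set with a window. Their median of 0.514 lies near the 0.475 of other tested near-silent genes and below the 0.774 of expressed genes.

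Motifs were searched on both strands. A gene with several windows was counted when any of them held a match, so such genes had more chances of a match. The interferon element core was found in 7 of 66 genes with a window (10.6%) against 3.96% of all genes with a window. The 7 genes were Irgm2, Igtp, Isg15, Oas1c, Gm11127, Unc13a and Extl1. None of them was among the genes called at 6 h. The core stood in 3 of the 5 interferon response genes with a window and in 12 of 28 (42.9%) other interferon response genes tested. The GC box GGGCGG was found in 63.6% against 52.0% of all genes with a window, and TATAAA in 15.2% against 14.4%. CCAAT was found in 45.5% against 42.4% and the AP-1 site TGANTCA in 3.03% against 8.26%. The STAT site TTCNNNGAA was found in 9.09% against 9.07% and the NF-kB site (GGGA, any base and TTTCC) in 0 genes against 0.502%. The TEAD site GGAATG was found in 13.6% against 15.2%, CACGTG in 7.58% against 9.36% and TGACGNCA in 4.55% against 4.68%. Of the REST element, the left part TCAGCAC was found in 12.1% against 5.57% and the right part GGACAG in 36.4% against 25.6%. A match to these letters is a description of the sequence and not a binding site.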

How the data were processed

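Counts per gene were deposited for the 8 libraries; total RNA was made into stranded libraries, per the labels' protocols. The submitters' processing notes name the build mm9, Subread, SAMtools 0.1.19 and featureCounts; annotation and strand setting were not given in the sources used here. The authors' counts were whole numbers and were used as deposited.

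The genes, lists and motifs were chosen with earlier results of these data known. Counts were tested in edgeR 4.0.16 (R 4.3.3): filterByExpr kept 11835 of 21240 genes (55.7%), TMM scaled the libraries, and 1 quasi-likelihood fit held 4 group means with 4 residual degrees of freedom. Of the 79 genes, 33 passed the filter only through the BRM014 30 h libraries. Tests were 2-sided, with Benjamini-Hochberg adjustment over all genes tested and 0.05 as the threshold. The test was checked on simulated counts.

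CPM used the column totals. Intervals of ratios and floors (3 counts) cover counting error only. Named genes, leaving aside symbols such as those ending in Rik, were the 12 with the highest BRM014 30 h mean, the 8 with the largest 6 h change among those called, the highest not called at 6 h, and the set's entries on the lists; others are said to be chosen later. Alternatives were DESeq2 1.42.0, limma-voom (limma 3.58.1), other scalings, filters and gene limits, each library left out, a replicate block and thinned counts. No gene coordinates are given for the counts' build, and the promoter windows are from GRCm38.p6.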

Additional observations from a re-analysis of the deposited data

How the results depend on the processing

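At 2 libraries a group and levels below 1 CPM, the test at 6 h rests on few counts, and a gene that did not pass is not shown to be unchanged. The count of 24 genes that rose at 6 h ranged from 9 to 24 over the fits without 1 library, and the median log2 fold change from 0.96 to 1.40. A stricter filter (1 CPM in 4 libraries) tested 12 of the genes and called 9 higher, with a median of 1.75. When the limits had to be met by every library, 39 genes qualified and 15 rose. With a fold of at least 5, 45 genes qualified, and their median was 1.53. Without the DMSO 6 h ceiling, 92 genes qualified, 28 rose and 2 fell (Siglecg and Chst15). The number of qualifying genes ranged from 73 to 100 when 1 library was left out of the choice, and 63 to 79 of the 79 genes were among them (63 without BRM014 30 h replicate 1). Library totals gave 27 genes that rose, size factors of the RLE method 24, no filter 26 and the 6 h libraries alone 20 of 40 tested. Counts thinned to the smallest library, chosen after seeing the data, gave 20. The share of all genes called was taken only for the main fit, so counts from other fits have no background beside them. The median of all genes moved by 0.08 on the log2 scale with library totals. Of 559 values for 35 single genes under alternatives, 488 kept their direction and side of the threshold, 66 no longer passed, 4 newly passed and 1 reversed: Kif5c, whose log2 fold change ranged from -0.35 (without BRM014 6 h replicate 1, edgeR adjusted p = 0.831) to 0.91 over the fits without 1 library. The cause of these changes was not tested. With the replicate number as a block, 26 genes rose and the median was 1.23. Labels do not say what a shared number marks. Replicate differences correlated across genes with r from 0.16 to 0.28 in 5 of 6 pairs of groups and -0.00 between DMSO 6 h and BRM014 30 h; with only 2 numbers a group, this does not settle whether the numbers pair the libraries.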

Other observations

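Besides the 79 genes, 13 genes met the limits at 30 h but had a DMSO 6 h mean of at least 1 CPM. Of these, Cercam, Dlx1, Podnl1 and Btn1a1 rose at 6 h and Siglecg and Chst15 fell (edgeR adjusted p below 0.05); they are named after their values were seen. Btn1a1, a butyrophilin of the milk fat globule, was at 1.81 and 0.751 CPM in DMSO 6 h, 3.72 and 3.43 CPM in BRM014 6 h, 0.664 and 0.395 CPM in DMSO 30 h and 7.73 and 9.78 CPM in BRM014 30 h, so that its groups did not overlap at either time (6 h log2 fold change 1.38 ± 0.36, edgeR adjusted p = 0.0134). Siglecg, a sialic acid-binding receptor known from B cells, was at 11.1 and 7.06 CPM in DMSO 6 h and 5.17 and 2.91 CPM in BRM014 6 h (log2 fold change -1.27 ± 0.36, edgeR adjusted p = 0.0195). At 30 h Siglecg was at 1.22 and 0.351 CPM in DMSO and 3.58 and 2.8 CPM in BRM014, so the BRM014 libraries were the lower ones at 6 h and the higher ones at 30 h.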
